A study of Mus musculus with 12 samples.

Results

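Interferon signalling genes, 9 in number, were followed through 6 RNAs of a mouse squamous cell carcinoma: the receptor chain gene Ifngr1, the signal transducer genes Stat2 and Stat3, the interferon regulatory factor genes Irf1, Irf5, Irf7 and Irf8, and the feedback inhibitor genes Socs1 and Socs3. They were found by gene name among the non-control spots of the arrays, and 12 of 41174 probes, standing for 9 of 27670 genes or other features, carried one of these names. Irf1, Irf8 and Stat3 had 2 probes each and the other genes had 1. All 12 probes were well above background in both RNAs on every array, so all 9 genes were measured in every comparison.

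Interferons are secreted by cells that sense infection, damage or tumour antigen, and they act through receptors that activate Janus kinases. Type I interferons (alpha and beta) lead to a complex with STAT2 and IRF9 that binds the interferon-stimulated response element (ISRE), and type II interferon (gamma, made mainly by T and NK cells) leads to factors that bind the gamma-activated site (GAS). Many of the genes turned on are themselves factors of the pathway: IRF1 and IRF7 extend the response, IRF5 and IRF8 act chiefly in myeloid and B cells, and SOCS1 shuts it off at the kinases. STAT3 and SOCS3 belong more to the response to interleukin-6 and related cytokines, which share the receptor chain gp130.

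The tumour, NR-S1, is a squamous cell carcinoma that was transplanted into the hind leg of male C3H/HeMsNrs mice and that spreads to the lung. The RNAs were of lung metastases after the primary tumour had received 5 Gy of carbon ions, of lung metastases after it had received 8 Gy of gamma rays, of lung metastases of unirradiated mice, of primary tumours after the same doses of carbon ions or of gamma rays, and of unirradiated primary tumours. Treatment began when the primary measured 7.5 mm; primaries were taken 1 week later and metastases 2 weeks later, from other mice, so a metastasis and a primary differ in organ, time and animal at once, and only the primary had been in the beam. The doses of the 2 beams differed. In all groups the cells came from laser-microdissected tissue and their RNA was amplified linearly before labelling. The labels give 1 RNA per group (each named replicate 1 and clone 1) and not how many animals it came from, so p-values were not computed and no difference is backed by biological replicates. Each pair of RNAs was hybridised on 2 arrays with the dyes exchanged; 10 of the 12 arrays held the unirradiated primary, and 2 held the carbon-irradiated with the gamma-irradiated primary.

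Ratios are on the log2 scale, computed after adding an offset of 50 to the signals, which pulls ratios of dim spots toward 0. The ± after a ratio is the SD over its 2 dye orientations, a technical error that leaves out the spread between animals. A gene is called higher or lower if both orientations gave a log2 ratio of 1 or more in size (2-fold) and of the same sign, and the share of all measured genes called higher or lower is given with the first count in each comparison, against which later counts of gene lists in that comparison are to be read. Where 2 RNAs never shared an array, their ratio was obtained by subtraction, orientation by orientation, of each one's ratio to the unirradiated primary; a gene's dye effect cancels there, so the smaller SD does not mean greater precision.

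Promoters of the 9 genes were searched for the motifs of the pathway's own complexes, and those with a match are printed with the one of Irf7, the gene with the largest ratios. All 9 genes had an entry in a RefSeq promoter table of the build GRCm38.p6, with 2 start sites each for Irf1 and Irf8. The 250 bases before each start were searched on both strands for the GAS motif TTCNNNGAA, which reads alike on both strands, and for the ISRE core GAAANNGAA, whose reverse complement is TTCNNTTTC. Of all 32851 promoter windows of this length, 7.02% held the GAS letters and 7.13% the ISRE core, and 247 windows held both. Among the 11 windows of the 9 genes, 3 held GAS (Irf1, Irf8 and Socs3) and 2 held the ISRE core (Stat2 and Socs1). Below, capitals mark the matches, and each line gives 250 bases up to the start site, 5′ to 3′ on the gene's strand.
Irf1, first start site, chr11:53769764-53770013, plus strand: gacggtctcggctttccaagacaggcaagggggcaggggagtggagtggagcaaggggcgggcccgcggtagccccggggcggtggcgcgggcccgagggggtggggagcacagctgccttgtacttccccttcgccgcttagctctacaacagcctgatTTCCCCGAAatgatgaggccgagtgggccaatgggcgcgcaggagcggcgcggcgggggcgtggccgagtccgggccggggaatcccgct
Irf8, first start site, chr8:120736108-120736357, plus strand: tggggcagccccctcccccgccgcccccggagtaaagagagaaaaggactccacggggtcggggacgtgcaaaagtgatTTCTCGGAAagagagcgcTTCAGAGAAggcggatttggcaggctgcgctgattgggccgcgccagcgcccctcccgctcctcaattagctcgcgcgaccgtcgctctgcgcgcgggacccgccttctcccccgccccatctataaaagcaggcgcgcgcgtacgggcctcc
Stat2, chr10:128270248-128270497, plus strand: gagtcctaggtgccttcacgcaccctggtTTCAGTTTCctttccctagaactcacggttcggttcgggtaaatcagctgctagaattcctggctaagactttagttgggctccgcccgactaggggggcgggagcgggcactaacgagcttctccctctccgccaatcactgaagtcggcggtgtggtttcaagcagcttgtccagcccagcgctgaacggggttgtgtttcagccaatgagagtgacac
Socs1, chr16:10785537-10785786, minus strand: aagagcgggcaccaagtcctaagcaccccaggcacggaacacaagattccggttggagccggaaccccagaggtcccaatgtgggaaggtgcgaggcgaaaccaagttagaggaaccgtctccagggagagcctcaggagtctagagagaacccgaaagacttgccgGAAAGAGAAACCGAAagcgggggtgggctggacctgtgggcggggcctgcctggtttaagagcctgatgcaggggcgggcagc
Socs3, chr11:117969367-117969616, minus strand: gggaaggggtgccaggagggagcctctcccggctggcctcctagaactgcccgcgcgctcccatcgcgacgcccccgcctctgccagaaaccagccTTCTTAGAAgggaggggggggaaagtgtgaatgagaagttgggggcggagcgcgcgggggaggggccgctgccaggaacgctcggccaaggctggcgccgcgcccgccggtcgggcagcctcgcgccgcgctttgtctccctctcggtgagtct
Irf7, chr7:141266425-141266674, minus strand: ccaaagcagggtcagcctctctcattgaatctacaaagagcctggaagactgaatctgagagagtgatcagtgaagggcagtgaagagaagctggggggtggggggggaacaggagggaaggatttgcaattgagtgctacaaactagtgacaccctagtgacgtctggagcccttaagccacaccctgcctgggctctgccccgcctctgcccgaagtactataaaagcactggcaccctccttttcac

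The GAS match of Irf1 began 90 bases before the start, those of Irf8 began 171 and 153 bases before it, and that of Socs3 began 154 bases before it. In Stat2 the ISRE core lay on the opposite strand, 221 bases before the start. The 2 ISRE cores of Socs1 began 83 and 77 bases before its start and overlap each other. No match was found in the windows of Ifngr1, Irf5, Irf7 or Stat3, nor in the second windows of Irf1 and Irf8, which says only that these letters are not in these windows.

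Series-wide measures that bear on the 9 genes were as follows. No spot was saturated, and 53.8% to 68.8% of the spots in a channel stood well above background. Keratinocyte markers, which a squamous carcinoma should carry, were well above background on every array in all 6 RNAs (8 of 8 markers, with summed intensities from 496984 to 826373). Markers of other tissues were present as well: the 6 lung epithelium markers summed to between 447609 and 942308 in the 3 metastases, against 450 to 506 in the 2 irradiated primaries, and the 7 skeletal muscle markers summed to between 2229 and 2883 in the metastases, against 5178 to 25127 in the primaries. In the unirradiated primary, the lung markers summed to 6723 to 42991 on the 6 arrays shared with a metastasis and to 450 to 499 on the 4 arrays shared with a primary. The lung signal read in the channel of that RNA thus went with the other RNA on the array; the reason was not tested, and for such markers, far brighter in a metastasis, sums and ratios that involve the unirradiated primary are uncertain. For the 9 genes, log2 intensity in the unirradiated primary had an SD of 0.03 (Irf1) to 0.21 (Irf8) over its 10 arrays. In such bulk RNA more cells of a type and more RNA per cell cannot be told apart.

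All 9 genes had positive ratios over the unirradiated primary in each of the 5 other RNAs, in both dye orientations; under 11 processing settings 5 to 9 were positive in both orientations and none negative in both. Irf7 had the largest mean ratio in each of the 5, and Socs3 or Stat3 the smallest in 4 of them, with Ifngr1 smallest in the carbon-irradiated primary. The following paragraphs take the genes by their roles.

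**Figure D1:**
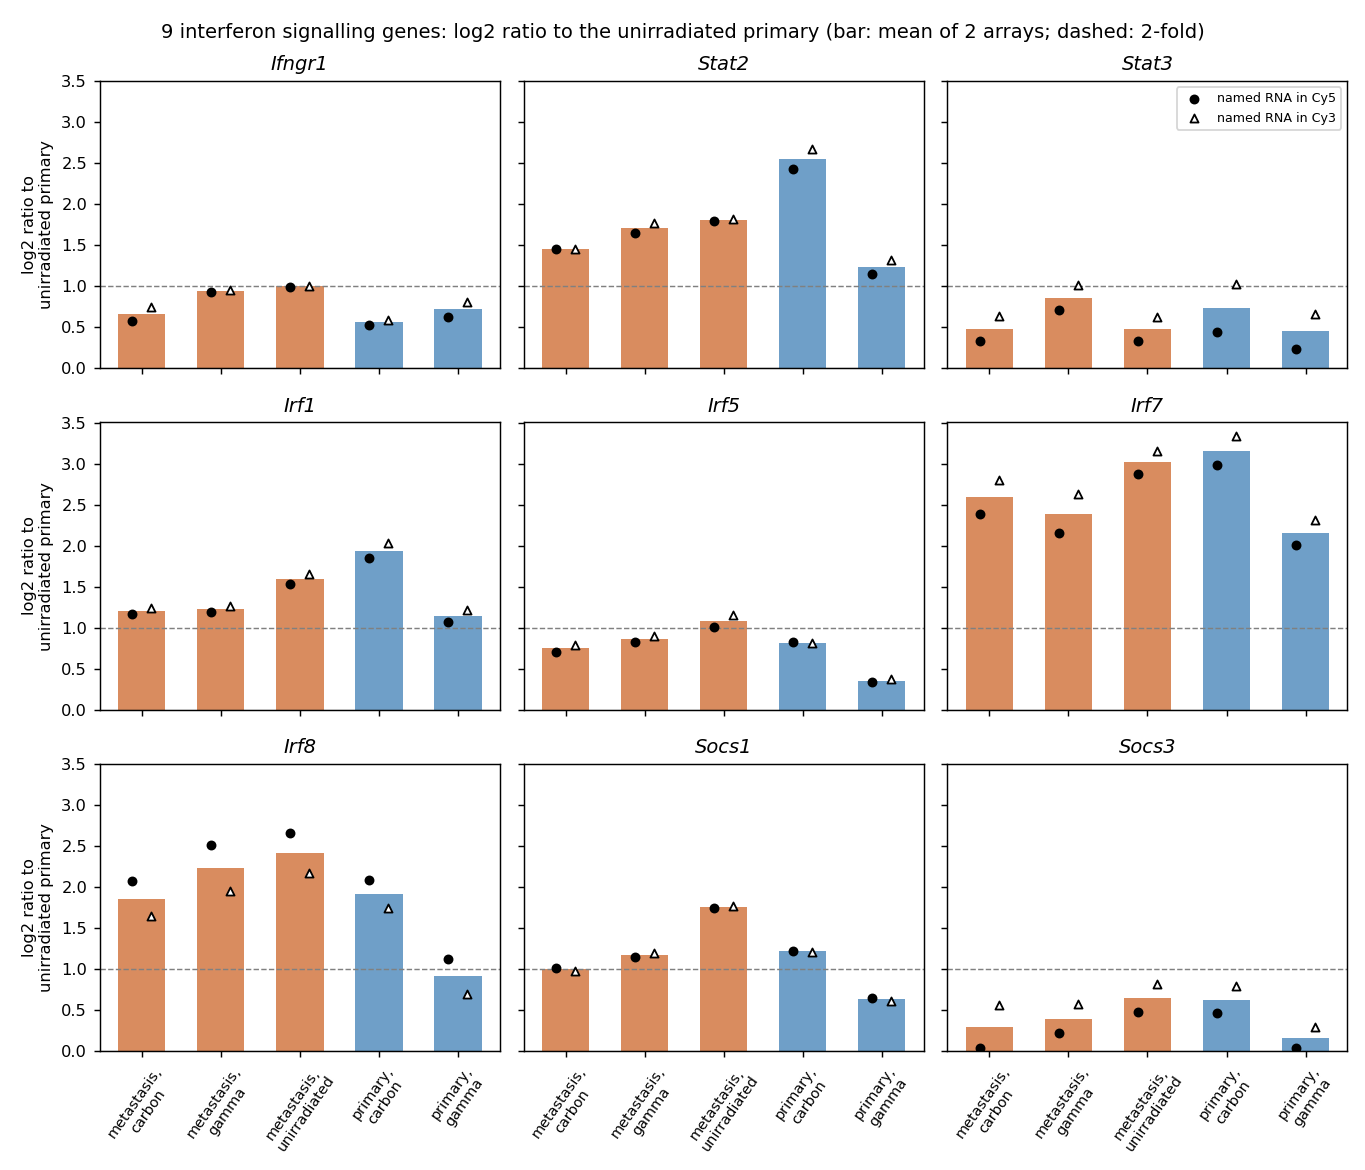
Log2 ratio (vertical axis) of each of the 9 genes to the unirradiated primary in 3 lung metastases (orange) and 2 irradiated primaries (blue); bars are means of 2 arrays, circles and triangles the array with the named RNA in Cy5 and in Cy3, and the dashed line is 2-fold. Every bar is positive, Irf7 reaches 3.16 in the carbon-irradiated primary, and Stat3 and Socs3 stay below the line except for single arrays of Stat3.

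Ifngr1 encodes the ligand-binding chain of the interferon-gamma receptor and differed by no more than about 2-fold between RNAs. Its log2 intensity was 14.48 ± 0.09 in the carbon-group metastasis, 14.68 ± 0.05 in the gamma-group metastasis and 14.76 ± 0.05 in the unirradiated metastasis (SD, 2 arrays each). In primaries it was 14.31 ± 0.07 after carbon ions, 14.48 ± 0.06 after gamma rays (4 arrays each) and 13.78 ± 0.04 without irradiation (10 arrays). The unirradiated primary was thus the lowest, and its arrays did not overlap with those of any other RNA. The ratio to it was 0.99 and 1.00 in the unirradiated metastasis, just at the 2-fold line and not called, and 0.93 and 0.95 in the gamma-group metastasis. It was 0.57 and 0.75 in the carbon-group metastasis, 0.53 and 0.59 in the carbon-irradiated primary and 0.63 and 0.81 in the gamma-irradiated primary. Ifngr1 was the only one of the 9 genes with a ratio negative in both orientations of carbon-irradiated over gamma-irradiated primary, at -0.22 and -0.18.

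Stat2, a subunit of the type I interferon complex, varied more. Its log2 intensity was 10.04 ± 0.13 in the carbon-group, 10.17 ± 0.05 in the gamma-group and 10.31 ± 0.04 in the unirradiated metastasis, and 11.14 ± 0.13 in the carbon-irradiated, 9.80 ± 0.09 in the gamma-irradiated and 8.55 ± 0.08 in the unirradiated primary. The carbon-irradiated primary was the highest. Against the unirradiated primary, the ratio was 2.43 and 2.67 after carbon ions, a 5.86-fold mean, and 1.15 and 1.32 after gamma rays, a 2.36-fold mean. The metastases lay between these primaries, with 1.46 and 1.46 in the carbon group, 1.65 and 1.77 in the gamma group and 1.79 and 1.82 in the unirradiated one. No 2 of the 6 RNAs overlapped in these ratios, so the order from carbon-irradiated primary through unirradiated, gamma-group and carbon-group metastasis to gamma-irradiated and unirradiated primary held in both orientations.

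Stat3, the transducer of interleukin-6 type cytokines, had smaller ratios than Stat2 in all 5 RNAs and was called in no comparison. The brighter probe's log2 intensity was 13.25 ± 0.08 in the carbon-group, 13.71 ± 0.08 in the gamma-group and 13.30 ± 0.08 in the unirradiated metastasis, and 13.57 ± 0.23 in the carbon-irradiated, 13.29 ± 0.13 in the gamma-irradiated and 12.82 ± 0.10 in the unirradiated primary. The probe had been printed 10 times, and the SD over its spots was only 0.01 to 0.06 within an array, so its error lay between the orientations. With the named RNA in Cy5 and then in Cy3, the ratio to the unirradiated primary was 0.33 and 0.64 in the carbon-group, 0.71 and 1.01 in the gamma-group and 0.33 and 0.62 in the unirradiated metastasis, and 0.44 and 1.03 in the carbon-irradiated and 0.24 and 0.66 in the gamma-irradiated primary. The Cy3 value was the higher each time, and a joint fit of all arrays gave a dye effect of -0.21. All neighbours in the order of the 5 RNAs overlapped. The dimmer probe of Stat3, listed under a cDNA accession, gave 0.76 ± 0.00 in the carbon-group and 0.77 ± 0.11 in the gamma-group metastasis but 0.27 ± 0.03 in the unirradiated one, so the probes differ on whether the carbon-group metastasis (0.48 ± 0.22 with the brighter probe) stood above the unirradiated one (0.48 ± 0.21).

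Irf1, an early target of interferon gamma that activates antigen presentation genes, had a log2 intensity of 14.29 ± 0.06 in the carbon-group, 14.34 ± 0.06 in the gamma-group and 14.71 ± 0.08 in the unirradiated metastasis. In primaries it was 14.96 ± 0.15 after carbon ions, 14.18 ± 0.11 after gamma rays and 13.10 ± 0.03 without irradiation. Its ratio to the unirradiated primary was 1.85 and 2.03 in the carbon-irradiated primary (3.84-fold on average) and 1.53 and 1.66 in the unirradiated metastasis. The other 3 RNAs lay close together, with 1.16 and 1.24 in the carbon-group metastasis, 1.20 and 1.26 in the gamma-group metastasis and 1.07 and 1.21 in the gamma-irradiated primary, and these 3 overlapped in a chain. The gene's dimmer probe gave lower ratios in every direct comparison, such as 1.60 ± 0.25 in the carbon-irradiated primary and 0.46 ± 0.33 in the gamma-group metastasis, and passed 2-fold in both orientations only in the carbon-irradiated primary. Which probe stood for Irf1 therefore decided its calls in the metastases and in the gamma-irradiated primary.

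Irf7, the regulator that amplifies type I interferon production, was the gene with the largest ratios. Log2 intensity was 11.22 ± 0.23 in the carbon-group, 11.03 ± 0.18 in the gamma-group and 11.77 ± 0.21 in the unirradiated metastasis, and 11.97 ± 0.20 in the carbon-irradiated, 10.80 ± 0.09 in the gamma-irradiated and 8.68 ± 0.11 in the unirradiated primary. The ratio to the unirradiated primary was 2.98 and 3.34 in the carbon-irradiated primary (8.95-fold) and 2.88 and 3.16 in the unirradiated metastasis (8.12-fold), and these overlapped. It was 2.39 and 2.80 in the carbon-group metastasis, 2.16 and 2.63 in the gamma-group metastasis and 2.01 and 2.31 in the gamma-irradiated primary, each overlapping with the next. The lowest of these 10 ratios, 2.01, was close to the highest of Irf1, 2.03.

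Irf8, which directs the development of macrophages, dendritic cells and B cells, was highest in the unirradiated metastasis with its brighter probe. Its level on the log2 scale was 11.77 ± 0.13 in the carbon-group, 12.33 ± 0.13 in the gamma-group and 12.53 ± 0.08 in the unirradiated metastasis, and 11.86 ± 0.04 in the carbon-irradiated, 10.75 ± 0.16 in the gamma-irradiated and 9.97 ± 0.21 in the unirradiated primary. With this probe the unirradiated metastasis had ratios to the unirradiated primary of 2.67 and 2.17, followed by the gamma-group metastasis with 2.52 and 1.96. The carbon-irradiated primary had 2.09 and 1.75 and the carbon-group metastasis 2.07 and 1.65, and these 4 RNAs overlapped in a chain. The gamma-irradiated primary, with 1.13 and 0.69, stood below all 4. The gene's other probe was dimmer and gave 1.59 ± 0.09 in the carbon-irradiated primary, 0.62 ± 0.05 in the gamma-irradiated primary and 1.58 ± 0.09 in the unirradiated metastasis. Its log2 intensity was 9.48 in the carbon-irradiated primary and 9.33 in the unirradiated, 9.28 in the gamma-group and 8.63 in the carbon-group metastasis. Which RNA was highest therefore depended on the probe. In the carbon-group metastasis the dimmer probe's mean ratio to the unirradiated primary was below 2-fold. Between the carbon-irradiated and the gamma-irradiated primary the probes gave 0.93 ± 0.01 (dimmer) and 1.01 ± 0.18 (brighter), while the carbon-group metastasis over the carbon-irradiated primary was -0.63 ± 0.03 with the dimmer and -0.06 ± 0.06 with the brighter probe.

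Irf5, a factor of Toll-like receptor signalling in myeloid cells, had the smallest ratio of the 4 IRF genes in each RNA. The log2 intensity of Irf5 was 10.33 ± 0.02 in the carbon-group, 10.46 ± 0.01 in the gamma-group and 10.70 ± 0.03 in the unirradiated metastasis, and 10.46 ± 0.08 in the carbon-irradiated, 9.95 ± 0.02 in the gamma-irradiated and 9.62 ± 0.07 in the unirradiated primary. Only the unirradiated metastasis passed 2-fold, with ratios of 1.00 and 1.16, and that call was lost under 4 of the other processing settings. The ratio was 0.82 and 0.81 in the carbon-irradiated primary and 0.33 and 0.38 in the gamma-irradiated primary.

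**Figure D2:**
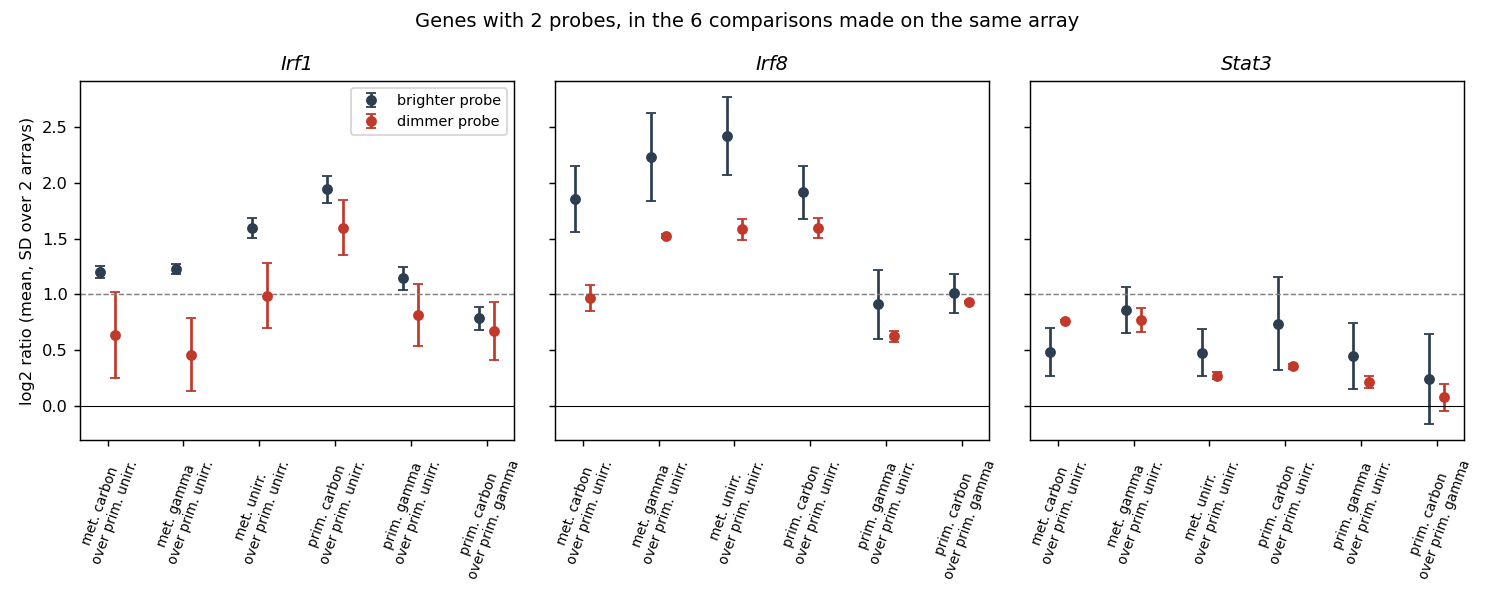
Log2 ratio (vertical axis, mean and SD over 2 arrays) given by the brighter (dark) and the dimmer (red) probe of Irf1, Irf8 and Stat3 in the 6 comparisons made on shared arrays; the dashed line is 2-fold. The dimmer Irf1 probe lies below the brighter one throughout, and the Stat3 probes change order in the carbon-group metastasis.

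Socs1, the inhibitor of Janus kinases that interferons induce, was called in 3 of the 5 RNAs. On the log2 scale its intensity was 11.15 ± 0.00 in the carbon-group, 11.40 ± 0.04 in the gamma-group and 12.01 ± 0.04 in the unirradiated metastasis, and 11.49 ± 0.05 in the carbon-irradiated, 10.84 ± 0.04 in the gamma-irradiated and 10.21 ± 0.04 in the unirradiated primary. Its orientations lay close together: the ratio to the unirradiated primary was 1.75 and 1.77 in the unirradiated metastasis and 1.23 and 1.22 in the carbon-irradiated primary. It was 1.15 and 1.20 in the gamma-group metastasis, 1.01 and 0.98 in the carbon-group metastasis and 0.65 and 0.62 in the gamma-irradiated primary, and no 2 RNAs overlapped. The carbon-group metastasis missed a call by the second value alone.

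Socs3, the inhibitor that acts on gp130 receptors, differed less. The intensity was, on the log2 scale, 14.55 ± 0.27 in the carbon-group, 14.66 ± 0.13 in the gamma-group and 14.98 ± 0.13 in the unirradiated metastasis, and 14.85 ± 0.16 in the carbon-irradiated, 14.37 ± 0.08 in the gamma-irradiated and 14.27 ± 0.08 in the unirradiated primary. The ratio to the unirradiated primary ran from 0.03 on one array of the gamma-irradiated primary to 0.82 on one array of the unirradiated metastasis, and every RNA overlapped with its neighbour in the order of the 5. Socs3 was called in no comparison.

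The first comparisons were of irradiated with unirradiated primaries, which ask what remained of the response to each beam in the tumour after 1 week. After carbon ions, 5 of the 9 genes were called higher (Irf7, Stat2, Irf1, Irf8 and Socs1) and none lower, while 3.9% of all measured genes were called higher and 1.07% lower; the Socs1 call was lost with median centring. Their mean ratios were 3.16 ± 0.25, 2.55 ± 0.17, 1.94 ± 0.12, 1.92 ± 0.24 and 1.22 ± 0.01. The other 4 lay between 0.56 ± 0.05 (Ifngr1) and 0.81 ± 0.01 (Irf5), and the median of the 9 was 1.22, against 0.02 over all measured genes. After gamma rays, 3 of the 9 were called higher (Irf7 at 2.16 ± 0.21, Stat2 at 1.24 ± 0.12 and Irf1 at 1.14 ± 0.10), with 2.23% of all measured genes called higher and 1.25% lower; with median centring in place of loess the count was 1. Irf8 passed on 1 array only (0.91 ± 0.31), and Socs1 stood at 0.63 ± 0.02. The median of the 9 was 0.72, against 0.02 over all measured genes.

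Beside these ratios, markers of T and NK cells were higher, and those of macrophages and conventional dendritic cells were not called. Of 10 measured T and NK cell markers, 7 were called higher after carbon ions and 5 after gamma rays, with medians of 1.71 and 1.06, led by Il2rb (2.43 ± 0.13) and Nkg7 (2.40 ± 0.07) after carbon ions. The 11 markers summed to 3279 to 3732 in the carbon-irradiated and 1846 to 2216 in the gamma-irradiated primary, against 1023 to 1195 in the unirradiated primary; Cd4 was not well above background on any array of the 2 irradiated primaries. None of 8 macrophage markers was called after carbon ions (median 0.22) or after gamma rays (0.14), nor any of the 4 markers of all leukocytes (0.26 and 0.07), nor any of the 4 measured markers of conventional dendritic cells (0.06 and -0.00). Of 4 measured plasmacytoid dendritic cell markers, none was called after carbon ions and 1 was lower after gamma rays, Cox6a2 at -1.95 ± 0.06, which skeletal muscle also expresses. The part of the T and NK cells in the ratios of the 9 genes was not tested. Neutrophil markers were lower after carbon ions (3 of 5 called, median -1.37), and skeletal muscle markers were lower in irradiated primaries (2 of 7 called after carbon ions, 6 of 7 after gamma rays), and their part was not tested either.

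Carbon ions were compared with gamma rays on arrays that held both primaries. Stat2 was the 1 gene of 9 called higher after carbon ions, at 1.12 and 1.54 (2.51-fold on average), with 0.884% of all measured genes called higher and 0.16% lower. Irf7 (0.87 and 1.37) and Irf8 (1.13 and 0.88) had mean ratios of 1.12 ± 0.35 and 1.01 ± 0.18 and passed in 1 orientation each. Irf1 at 0.79 ± 0.10, Socs1 at 0.66 ± 0.08, Irf5 at 0.46 ± 0.04 and Socs3 at 0.43 ± 0.18 were positive in both orientations. Stat3 was at -0.04 and 0.53, so its sign changed with the dye, and Ifngr1 was at -0.20 ± 0.03. Taken through the unirradiated primary instead, the count was again 1, and with scaling between arrays or in a joint fit of all arrays it was 3. T and NK cell markers were higher after carbon ions too (2 of 10 called, median 0.75), 5 of 7 skeletal muscle markers were called higher (median 1.53), and 2 of 5 neutrophil markers, S100a8 at -1.49 ± 0.06 and S100a9 at -1.53 ± 0.31, were called lower; their part in the ratios was not tested.

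Lung metastases were compared with the unirradiated primary next, and they carried more of the pathway's factors whether or not the mouse had been irradiated. In the unirradiated metastasis 6 of the 9 genes were called higher (Irf7 at 3.02 ± 0.20, Irf8 at 2.42 ± 0.35, Stat2 at 1.80 ± 0.02, Socs1 at 1.76 ± 0.02, Irf1 at 1.60 ± 0.09 and Irf5 at 1.08 ± 0.11), with 10.4% of all measured genes called higher and 1.69% lower. The Irf5 call was lost with the processed log ratio, the authors' value table, scaling between arrays and median centring (5, 5, 5 and 4 genes called), and the Irf1 call with median centring. In the gamma-group metastasis 5 were called (Irf7 at 2.39 ± 0.33, Irf8 at 2.24 ± 0.39, Stat2 at 1.71 ± 0.09, Irf1 at 1.23 ± 0.05 and Socs1 at 1.17 ± 0.03), with 8.82% of all measured genes higher and 1.1% lower; the count was 3 with median centring or with scaling. In the carbon-group metastasis 4 were called (Irf7 at 2.59 ± 0.29, Irf8 at 1.86 ± 0.30, Stat2 at 1.46 ± 0.00 and Irf1 at 1.20 ± 0.06), with 8.21% of all measured genes higher and 1.03% lower. The count was 1 with median centring, and the Irf8 and Irf1 calls there held only with the brighter probes. No gene of the 9 was called lower in any of the 3. Medians of the 9 were 1.00 in the carbon group, 1.17 in the gamma group and 1.60 in the unirradiated metastasis, against 0.06, 0.06 and 0.05 over all measured genes.

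Markers of many cell types were higher here as well. In the unirradiated metastasis 8 of 11 T and NK cell markers and 5 of 5 neutrophil markers were called higher, with medians of 2.11 and 5.18. The counts were 7 of 11 and 4 of 5 in the gamma-group metastasis (1.99 and 3.27), and 5 of 10 and 0 of 5 in the carbon-group metastasis (1.31 and 0.28). All 8 macrophage markers, all 4 markers of all leukocytes and all 6 lung epithelium markers were called higher in the unirradiated metastasis, with medians of 1.77, 2.81 and 4.48. In the gamma group 5 of 8 macrophage and 4 of 4 leukocyte markers were called higher (medians 1.14 and 2.51), and in the carbon group 4 of 8 and 3 of 4 (1.06 and 1.54). The macrophage markers summed to 261360 to 478462 in the metastases, against 17822 to 47405 in the unirradiated primary. Lyz2 dominates these sums, with a mean log2 intensity of 15.71, against 12.06 for C1qa, the next brightest. Its ratio was 3.94 in the gamma group and 3.92 in the carbon group, where C1qa had 0.31 and 0.41. The sums thus do not stand for the list as a whole. B cell markers stood highest in the gamma-group metastasis (11188 to 11331, against 1458 to 1711 in the carbon group and 1986 to 2248 in the unirradiated metastasis). The part of these cells in the ratios of the 9 genes was not tested.

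Metastases of irradiated mice were compared with the metastasis of unirradiated mice through the unirradiated primary, which asks what irradiating the primary did to the lung tumours. No gene of the 9 was called in either comparison, but 8 of the 9 ratios were negative in both orientations after gamma rays and 8 of the 9 after carbon ions. The share of all measured genes negative in both orientations is not given, so these sign counts have no background. Among the negative ratios after gamma rays, those of Ifngr1 (-0.056) and Stat2 (-0.095) were close to 0. In the gamma group, 1.84% of all measured genes were called higher and 1.4% lower; in the carbon group, 1.85% higher and 2.37% lower. After gamma rays the lowest were Irf7 at -0.63 ± 0.13, Socs1 at -0.59 ± 0.01 and Irf1 at -0.37 ± 0.04, and Stat3 alone was positive at 0.38 ± 0.00. After carbon ions the lowest were Socs1 at -0.76 ± 0.04, Irf8 at -0.56 ± 0.05 and Irf7 at -0.43 ± 0.09, and Stat3 stood at 0.01 ± 0.01. Medians of the 9 were -0.22 and -0.35, against -0.03 and -0.03 over all measured genes. The dimmer probes of Irf1 and Irf8 were negative as well in both orientations, at -0.53 ± 0.03 and -0.06 ± 0.07 after gamma rays and at -0.35 ± 0.09 and -0.62 ± 0.03 after carbon ions, while the dimmer Stat3 probe was positive after both (0.50 ± 0.08 and 0.49 ± 0.04). The arrays of the gamma-group and the unirradiated metastasis lay on the same slide; those of the carbon-group metastasis lay on another, so slide and RNA cannot be told apart there. Ifng was called lower in both (-2.20 ± 0.06 and -1.85 ± 0.07), and macrophage markers had medians of -0.85 and -0.93 and neutrophil markers of -1.72 and -4.61; their part was not tested.

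In primaries the same 8 genes had positive ratios of irradiated over unirradiated tumour, so that the sign of the radiation contrast differed between the sites. Over all genes measured in both contrasts, 15.5% were positive in primaries and negative in metastases in both orientations after carbon ions, and 13.9% after gamma rays. All these ratios were made on arrays with the unirradiated primary, and the sites also differ in time after treatment. The difference was not tested.

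**Figure D3:**
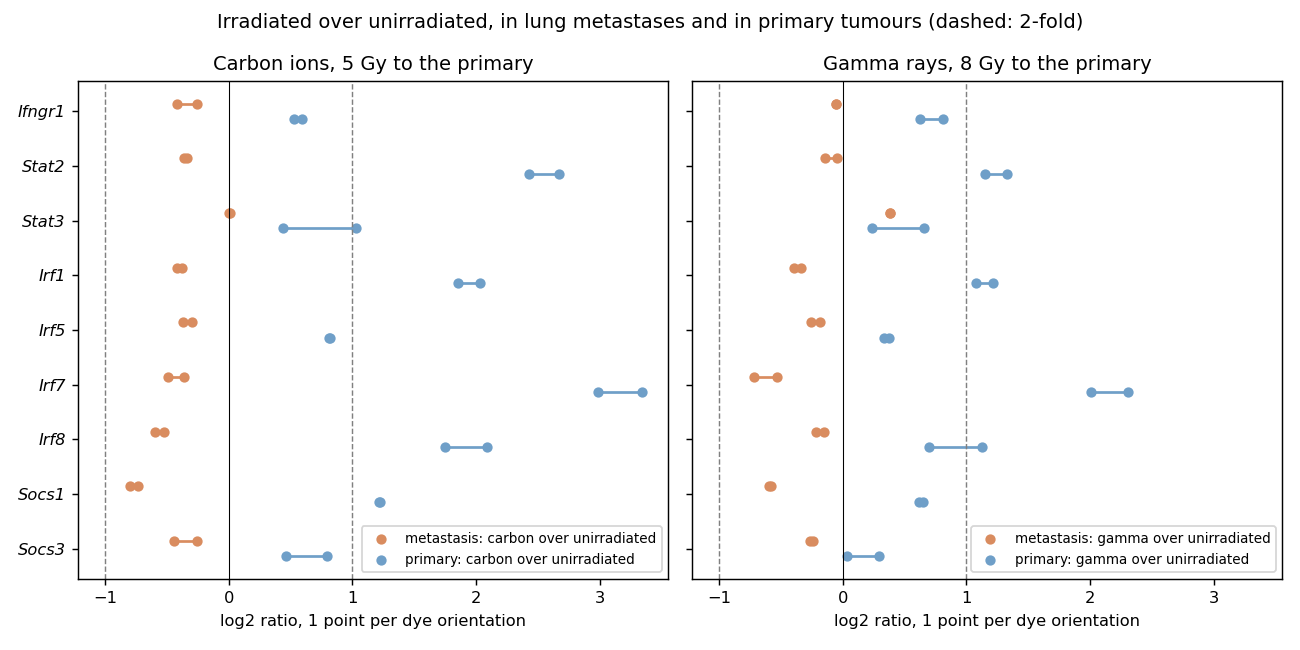
Log2 ratio of irradiated over unirradiated RNA (horizontal axis, 1 point per dye orientation) for the 9 genes in lung metastases (orange) and in primary tumours (blue), after carbon ions (left) and gamma rays (right); dashed lines are 2-fold. All genes but Stat3 lie left of 0 in metastases and right of 0 in primaries, and no metastasis value reaches 2-fold. Ifngr1 and Stat2 lie close to 0 in metastases after gamma rays.

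The carbon-group and gamma-group metastases differed little. No gene of the 9 was called, with 0.239% of all measured genes called higher and 1.07% lower in the carbon group. The 9 ratios of carbon group over gamma group ran from -0.38 ± 0.10 (Irf8) and -0.38 ± 0.01 (Stat3) to 0.20 ± 0.04 (Irf7), and 8 of the 9 were negative in both orientations. The dimmer Irf1 probe was positive instead, at 0.18 ± 0.06, and the dimmer Stat3 probe stood at -0.01 ± 0.11. These RNAs lay on different slides, which cannot be told apart from the groups.

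Metastasis and primary were also compared within each beam. After gamma rays all 9 genes were positive in both orientations in the metastasis over the primary, although with median centring 4 were positive and 4 negative. Irf8 was the 1 gene called higher, at 1.39 and 1.27, with 7.79% of all measured genes called higher and 0.905% lower; no gene was called with median centring or scaling. The other 8 lay between 0.09 ± 0.05 (Irf1) and 0.54 ± 0.06 (Socs1). The dimmer probes gave -0.35 ± 0.05 for Irf1, the opposite sign, and 0.90 ± 0.03 for Irf8, short of a call. After carbon ions no gene was called, with 6.86% of all measured genes called higher and 1.93% lower, and 8 of the 9 were negative in both orientations. Stat2 was lowest, at -0.97 and -1.22 and called lower under several other settings, then Irf1 at -0.74 ± 0.07 and Irf7 at -0.57 ± 0.04, while Ifngr1 was at 0.10 ± 0.08. The Stat3 probes differed in sign here (-0.25 ± 0.20 with the brighter, 0.41 ± 0.02 with the dimmer). With their brighter probes and loess, 8 genes thus stood on opposite sides of 0 after the 2 beams, a difference that was not tested. The share of all measured genes with such opposite signs is not given, so this count has no background. It also depends on the normalisation, since only 4 genes were positive after gamma rays with median centring. Both comparisons cross slides. Macrophage markers were called higher in the metastasis in both (5 of 8 after gamma rays, 3 of 8 after carbon ions), though C1qa was at -0.39 after carbon ions. T and NK cell markers differed between the beams. After gamma rays several were called higher, led by Lck (2.80 ± 0.05) and Cd3d (2.44 ± 0.18), and none lower. After carbon ions none was called higher, and Ifng (-1.34 ± 0.17) and Gzmb (-1.11 ± 0.11) were called lower. The part of these cells was not tested.

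The rest of the pathway was read from lists of its parts. Of the ligands, only Ifng (interferon gamma) was measured: it was well above background on all arrays of the 5 other RNAs and on none of the 10 arrays of the unirradiated primary, so its ratios are bounds. It was at least 5.18-fold higher in the carbon-irradiated primary, at least 1.93-fold in the gamma-irradiated primary and at least 7.41-fold in the unirradiated metastasis than in the unirradiated primary, and at least 1.62-fold and 1.89-fold in the gamma-group and carbon-group metastases. Interferon alpha and beta probes (Ifna1, Ifna2, Ifna4 and Ifnb1) were above background on at most 1 array of any RNA, so no level of a type I interferon was measured here. Ifng is a T and NK cell marker at the same time.

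Irf9, the DNA-binding partner of STAT2, was called higher after carbon ions (2.58 ± 0.17), after gamma rays (1.70 ± 0.19) and in the unirradiated metastasis (1.74 ± 0.20), and it was the 1 of 7 measured other IRFs called in each. Both Irf9 and Stat2 thus had their highest ratio in the carbon-irradiated primary. Of Stat4, Stat5a, Stat5b and Stat6, none was called in either irradiated primary, while Stat4, a transducer of interleukin-12 in T and NK cells, was called in the unirradiated metastasis at 1.26 ± 0.02. The 4 Janus kinases, which carry the signal from the receptors, were called in no comparison, with medians of 0.24 after carbon ions and -0.02 after gamma rays. The other interferon receptor genes were not called in either irradiated primary (medians 0.24 and 0.18); in the unirradiated metastasis 2 of 5 were, Il10rb at 1.48 and Ifngr2 at 1.13.

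Interferon-induced target genes were read from a list chosen, like the others, with earlier results of these data known. Its counts are therefore no independent evidence that such genes moved together. Of 31 on the array, all 31 were called higher after carbon ions, 27 after gamma rays and 31 in the unirradiated metastasis, with medians of 3.08, 2.23 and 3.06. Iigp1 and Igtp, guanosine triphosphatases of cell-autonomous immunity, led in all 3, at 7.44 and 6.94, at 4.80 and 4.77, and at 6.11 and 5.64. Between 1 and 3 of the 31, depending on the comparison, did not rise well above background in that primary on the arrays used, and their ratios are bounds. Carbon over gamma gave 18 of 31 called higher. The gamma-group metastasis had 12 of 31 called lower than the unirradiated metastasis and the carbon-group metastasis 9, with medians of -0.96 and -0.73, led by Ido1 (-3.18 and -2.58), the tryptophan-degrading enzyme, and the chemokine gene Cxcl11 (-2.81 and -2.13). None of the 9 factors was called in these 2 comparisons.

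Of 20 other feedback regulators, 6 were called higher after carbon ions, 3 after gamma rays and 7 in the unirradiated metastasis, and none lower in these. Usp18, which removes ISG15 from proteins and blocks the type I receptor, led with 3.57, 2.60 and 3.43. Cish, a SOCS family inhibitor of STAT5, was called at 1.64 after carbon ions and at 2.63 in the unirradiated metastasis and stood at 0.83 after gamma rays. None of Socs2, Socs4, Socs5, Socs6 and Socs7, the rest of the SOCS family, singled out after their values were seen, was called in any of the 11 comparisons.

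Genes on the STAT3 side of the pathway were read in the same way. Of 17 measured STAT3 target genes, 1 was called higher and 2 lower after carbon ions, and none higher and 1 lower after gamma rays, with medians of 0.15 and -0.11. Genes of gp130 cytokines and their receptors were listed together with Csf3r. Of those measured, 1 of 12 was called higher and 2 lower after carbon ions and none after gamma rays. In the unirradiated metastasis 4 of 17 STAT3 targets were called higher, led by Lcn2 (3.75), the iron-binding lipocalin, and Saa3 (3.54), an acute-phase protein. On the list with Csf3r, 6 of 13 genes were called higher there, among them Csf3r itself (2.05). Csf3r encodes the granulocyte colony-stimulating factor receptor, which does not use gp130, and is also a neutrophil marker. Of 16 sensors and adaptors that activate IRFs, none was called in either irradiated primary, where 3.9% and 2.23% of all measured genes were higher, and 3 were in the unirradiated metastasis (Tlr7 at 2.32, Tlr4 at 1.47 and Sting1 at 1.11), where 10.4% of all measured genes were. Counts this close to the general share, such as the 1 of 17 STAT3 targets after carbon ions, are no result about the list.

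**Figure D4:**
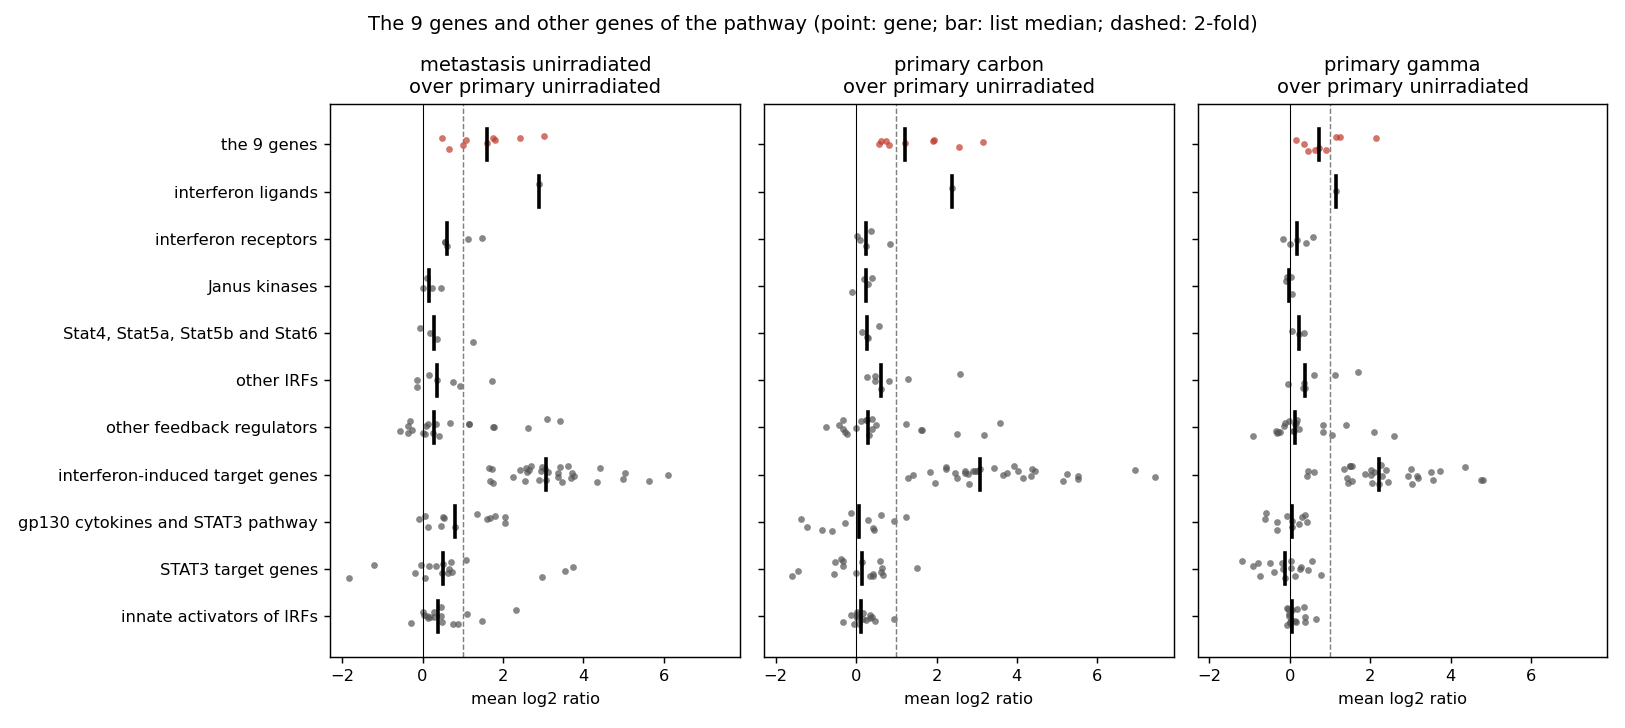
Mean log2 ratio to the unirradiated primary (horizontal axis) of the 9 genes (red) and of each measured gene of 10 pathway lists (grey) in the unirradiated metastasis, the carbon-irradiated primary and the gamma-irradiated primary; black bars are list medians and the dashed line is 2-fold. The target genes lie farthest right, with medians of 3.06, 3.08 and 2.23, and the Janus kinases, STAT3 targets and sensors lie near 0 in the primaries.

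**Figure D5:**
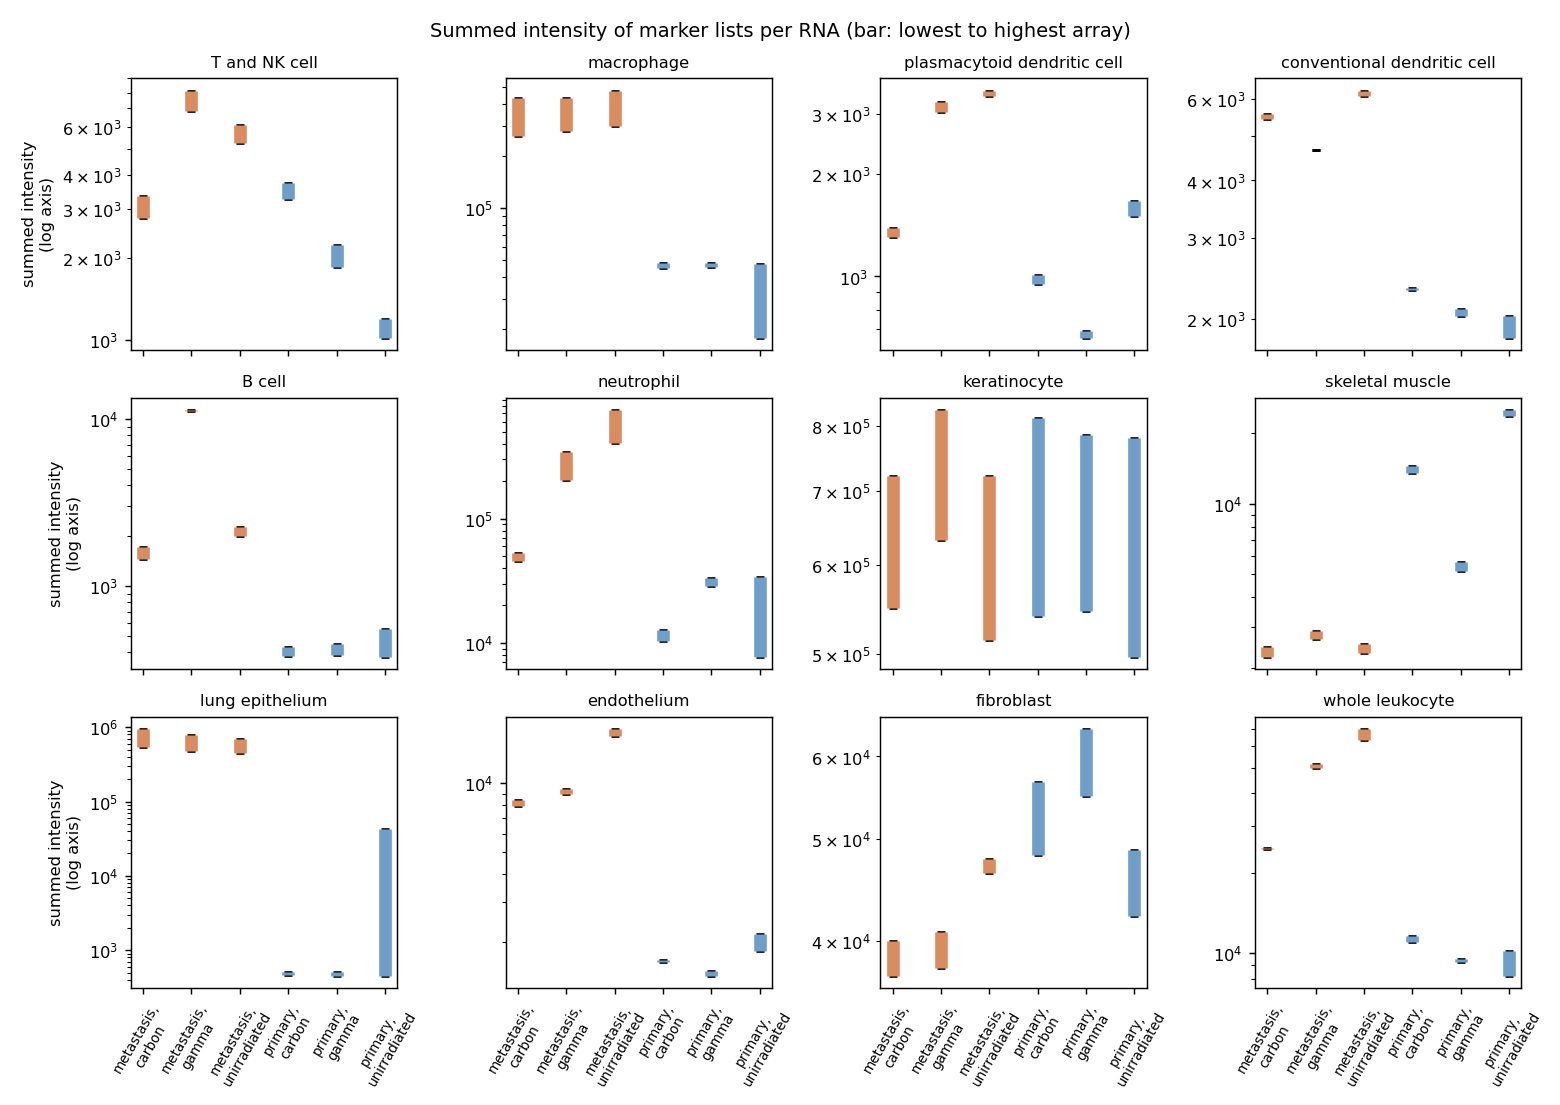
Summed intensity of 12 cell type marker lists (vertical log axis, a scale of its own in each panel) in the 6 RNAs; each bar spans the lowest and the highest array. T and NK cell markers are lowest in the unirradiated primary, macrophage and lung markers are higher in the metastases, and the keratinocyte sums overlap among all 6 RNAs. Krt14 and Krt5 are the brightest in those sums, which do not stand for each marker. Against the unirradiated primary, Krt16 alone of that list was called lower in the carbon-irradiated primary (-1.51) and higher in the gamma-group metastasis (1.31).

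Genes with the most similar pattern were sought among 12923 named genes, by the root mean square difference over the 5 mean ratios to the unirradiated primary, which share that RNA. Nearest to Irf7 was Isg15, the ubiquitin-like protein induced by interferon, at a distance of 0.06, then Phf11d (0.14) and Ubd (0.21). Nearest to Irf1 were Trafd1 (0.14), Tapbp (0.17), the peptide-loading factor tapasin, and Cebpa (0.19). For Stat2 they were Trim21 (0.14), H2-DMa (0.16) and H2-M3 (0.20), the last 2 of which belong to the major histocompatibility complex family. Nearest to Irf8 were Cyp4b1 (0.22), the complement gene C3 (0.24) and Gzma (0.24), a granzyme of T and NK cells, and nearest to Socs1 were Klrc1 (0.10), an NK cell receptor, Pros1 (0.14) and Trim30d (0.16). For Irf5 the nearest were Tdrd7 (0.08), Snx13 (0.10) and Plekha4 (0.11), for Ifngr1 Ggh (0.12), Ppdpf (0.12) and Tmem268 (0.14), for Socs3 Ppp1r12a (0.06), Cebpb (0.07) and Qsox1 (0.07), and for Stat3 AI661453 (0.06), Izumo4 (0.07) and 9330175E14Rik (0.07). Genes with small ratios have many near neighbours by this measure, so the short distances of Stat3 and Socs3 say little. No gene of the 9 was among the 3 nearest of another.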

How the data were processed

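The 12 two-colour Agilent arrays (design 014868) were scanned and read with Feature Extraction 9.1.3.1, per the file headers. Fluorescence intensity of each spot in both channels, with its local background, was used as deposited. The authors' value table holds log10 ratios, which equalled the scanner's log10 ratios within 0.005 in the deposited files, with a median of 0 per array; it served as an alternative.

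Of 45018 spots per array, 43379 were not controls. Background was corrected with normexp (offset 50) and each array was normalised with loess in limma 3.58.1 (R 4.3.3), with control and outlier spots (16 to 58 per array) at weight 0. Spots of a probe were averaged, ratios were turned by the dye given in the labels, and the brightest probe stood for a gene. A gene counted as measured where at least 1 of the 2 RNAs was well above background in each orientation (15038 to 17664 genes per direct comparison). Gene names were updated through RefSeq accessions (22951 probes), symbols (6659) or older symbols (3109), and the array's own name was kept for 8455. There were 6 direct and 5 indirect comparisons, and none had a test. Each array's spot count is fixed, and the 2 arrays per comparison limit the precision. The code was tested on simulated ratios. Tables were handled with Python 3.11.15, numpy 2.4.6 and pandas 2.3.3.

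Named are all 9 genes with every probe, up to 4 called genes per pathway list and 2 per marker list with the largest ratios, and the 3 genes nearest to each of the 9 by pattern. The members and gene lists were chosen with earlier results of these data known. Alternatives covered background correction, normalisation, the choice of probe, the filter on dim probes, single orientations, a joint fit and a threshold of 1.5-fold. One gene of the pathway is not reported here.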

Additional observations from a re-analysis of the deposited data

Results flagged for a closer look

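The ratio of irradiated over unirradiated RNA had opposite signs at the 2 sites for 8 of the 9 genes: every orientation was negative in lung metastases and positive in primary tumours. Each value below is the log2 ratio of irradiated over unirradiated metastasis minus the log2 ratio of irradiated over unirradiated primary. The difference was not tested, since each group was 1 RNA.

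After carbon ions the difference was -3.588 for Irf7, -2.899 for Stat2, -2.478 for Irf8, -2.339 for Irf1, -1.985 for Socs1, -1.15 for Irf5, -0.979 for Socs3 and -0.893 for Ifngr1. After gamma rays it was -2.786 for Irf7, -1.511 for Irf1, -1.332 for Stat2, -1.219 for Socs1, -1.092 for Irf8, -0.774 for Ifngr1, -0.576 for Irf5 and -0.416 for Socs3. Stat3 did not show the pattern after either beam. Over all genes measured in both contrasts, 15.5% of 15191 were negative in metastases and positive in primaries after carbon ions, and 13.9% of 15307 after gamma rays. The ratio in primaries was the larger part of each difference except that of Socs3 after gamma rays. After carbon ions Irf7 and Stat2 were at -0.43 and -0.35 in metastases and at 3.16 and 2.55 in primaries. After gamma rays Ifngr1 and Stat2 were at -0.056 and -0.095 in metastases and at 0.718 and 1.238 in primaries. For Ifngr1 and Stat2 after gamma rays the metastasis values were thus close to 0, and the difference came almost wholly from the primaries. The metastasis values of Irf7 and Stat2 after carbon ions were farther from 0, where the median over all measured genes was -0.03. No other value of the 9 genes met a criterion for a closer look; groups of 2 arrays are too small for a search for outlying samples.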

How the results depend on the processing

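No paired analysis was possible because each group is 1 RNA, so the groups share a single replicate number. Of 603 recomputed ratios of the 9 genes in direct comparisons, 511 moved by less than their SD, 92 moved further, by up to 0.496, and 0 changed sign past a call. Of 133 recomputed counts of called genes, 111 stayed within 1.5 times and 22 did not. With median centring in place of loess the count was 1 for the gamma-irradiated primary (3 in the report), 3 for the gamma-group and 1 for the carbon-group metastasis over the unirradiated primary (5 and 4), 0 for gamma-group metastasis over gamma-irradiated primary (1) and 1 for carbon-group metastasis over carbon-irradiated primary (0). With scaling between arrays these were 3 for carbon over gamma primaries (1), 3 for the gamma-group metastasis over the unirradiated primary, 0 for gamma-group metastasis over gamma-irradiated primary and 2 (Irf7 and Stat2, lower) for carbon-group metastasis over carbon-irradiated primary. Carbon over gamma primaries gave 2 with either orientation alone and 3 in the joint fit. Carbon-group metastasis over carbon-irradiated primary gave 1, Stat2, lower, with the scanner's processed log ratio, the authors' value table, no offset, the second orientation alone and the joint fit. For the looser threshold of 1.5-fold, the share of all measured genes called is not given. The shares at 2-fold do not apply, so the counts at 1.5-fold have no background. At 1.5-fold the counts were 6 for the gamma-irradiated primary, 5 for carbon over gamma, 8 for the gamma-group metastasis over the unirradiated primary, 1 for carbon-group over unirradiated metastasis (Socs1) and 2 for carbon-group metastasis over carbon-irradiated primary (Irf1 and Stat2). Within that range, the Socs1 call after carbon ions was lost with median centring (4 called, against 5), and in the unirradiated metastasis the Irf5 call was lost with the processed log ratio, the authors' value table and scaling (5 called, against 6) and, with the Irf1 call, under median centring (4). The cause of these shifts was not tested.

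The negative sign of 8 genes in the gamma-group over the unirradiated metastasis held in all 11 settings, and 8 to 9 were negative in the carbon group. For gamma-group metastasis over gamma-irradiated primary the number positive ranged from 4 to 9 and the number negative from 0 to 4, so that direction depends on the scaling. The median of all genes moved by more than 0.1 with the processed log ratio (-0.155 for the unirradiated, -0.102 for the gamma-group and -0.103 for the carbon-group metastasis over the unirradiated primary) and with median centring (-0.165 and -0.167 for the gamma and carbon groups). The share of calls that were higher fell to 67.4% with the processed log ratio, against 78.4%, after carbon ions, and for the gamma-group over the unirradiated metastasis it was 66.9% with the processed log ratio and 45.4% with scaling, against 56.8%.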
